A study of Mus musculus with 8 samples.

Results

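The binding sites of the phospho-mutant estrogen-related receptor α (ERRα 3SA) were compared between skeletal muscle and liver. All peaks of the 3SA muscle list and of the 3SA liver list were taken, 50647 and 29040 peaks, or 79687 of the 126927 peaks in the 4 lists of the series. The animals were male C57BL/6N mice of 2 to 3 months of the ERRalpha 3SA phospho-mutant genotype, with serine phosphosites in the amino-terminal domain of ERRα replaced so that the receptor cannot be phosphorylated there. Tissues were collected at zeitgeber time 9. Muscle was gastrocnemius with soleus pooled from 5 mice and liver was pooled from 2 mice, and 1 ERRα ChIP-seq library was made per tissue with the antibody ab76228. WT lists of both tissues were used only to ask whether a site was also called in WT mice.

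Each tissue has 1 peak list from a pool of animals, so no difference between the tissues has a replicate check and no p-value is given. Muscle nuclei were isolated before crosslinking and received more sonication than liver, so tissue and protocol cannot be told apart. A peak is an interval with more reads in the ERRα ChIP than in input DNA. Its score is a whole number from 30 upwards that orders the peaks of a list. Scores of different lists were not compared as amounts. The rank of a peak within its list was used in their place, with tied peaks at the best rank of the tie. The lists hold no read numbers, so depth is unknown, and the 95% Wilson intervals printed after shares cover counting error only. The muscle list was longer, with a median score of 36 and 84.5% of its peaks under a score of 50. The liver list had a median score of 49, with 55.2% under 50. Peaks of at least 100 numbered 2601 in muscle and 5971 in liver.

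ERRα is an orphan nuclear receptor that binds DNA as a monomer or dimer at the ERR response element (ERRE), an extended half-site of the nuclear receptor family, and works with the coactivators PGC-1α and PGC-1β. It is known for driving genes of the tricarboxylic acid (TCA) cycle, oxidative phosphorylation and fatty acid oxidation in tissues with high energy demand. Muscle and liver both depend on these pathways, but muscle uses them for contraction, whereas liver also makes glucose, urea, bile acids and plasma proteins.

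To show what the element looks like at sites of each kind, the 4 shared sites with the highest liver scores within 20 kb of a transcription start site (TSS) that hold TCAAGGTCA in their central 300 bp are printed, leaving out exons, UTRs and transcript ends. Every sequence is 49 bases from GRCm38.p6 (mm10), read 5′ to 3′ on the strand that carries the element, and capitals mark each TCAAGGTCA.
Capn2: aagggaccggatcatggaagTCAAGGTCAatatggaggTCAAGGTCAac
Esrra: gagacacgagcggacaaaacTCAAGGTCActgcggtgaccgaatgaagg
1700040L02Rik: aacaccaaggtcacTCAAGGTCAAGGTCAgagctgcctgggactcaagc
Qprt: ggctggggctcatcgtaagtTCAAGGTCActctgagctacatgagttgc
The Capn2 element lies at chr1:182500956-182501004 on the + strand, in an intron of this calpain gene, and the liver interval around it holds 7 copies. The Esrra element lies at chr19:6922317-6922365 on the + strand, in a liver peak annotated to the promoter of the gene that encodes ERRα itself. The element near 1700040L02Rik, at chr10:68541655-68541703 on the - strand, overlaps a second copy, and that of Qprt, at chr7:127120223-127120271 on the + strand, is 1 of 3 in its interval. Qprt encodes an enzyme of NAD synthesis.

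The highest-ranked sites with the same element that were called in muscle and shared no base with a liver peak lay near Zfp46, Vdac1, P2ry2 and Kcng4.
Zfp46: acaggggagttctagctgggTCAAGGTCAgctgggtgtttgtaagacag
Vdac1: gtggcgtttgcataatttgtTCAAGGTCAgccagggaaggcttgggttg
P2ry2: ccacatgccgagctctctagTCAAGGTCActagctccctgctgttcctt
Kcng4: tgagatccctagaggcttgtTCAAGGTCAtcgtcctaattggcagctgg
They lie at chr4:136270944-136270992 on the - strand, chr11:52369549-52369597, chr7:101002293-101002341 and chr8:119636335-119636383, the last 3 on the + strand. Vdac1 encodes the main channel of the outer mitochondrial membrane and its site is in an intron. Kcng4 encodes a potassium channel subunit and its site is annotated to the promoter. These sites ranked 492, 539, 780 and 824 in muscle.

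The corresponding sites of liver lay near Sstr2, Usp46, Cox18 and Mt2, and all 4 were intergenic.
Sstr2: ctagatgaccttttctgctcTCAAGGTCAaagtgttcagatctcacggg
Usp46: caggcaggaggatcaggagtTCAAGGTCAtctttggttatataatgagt
Cox18: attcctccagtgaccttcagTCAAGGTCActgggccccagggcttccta
Mt2: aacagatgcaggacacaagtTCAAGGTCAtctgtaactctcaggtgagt
They lie at chr11:113617420-113617468, chr5:74079608-74079656 and chr5:90209427-90209475 on the + strand and at chr8:94165383-94165431 on the - strand. Cox18 encodes a membrane insertase of cytochrome c oxidase assembly, and Mt2 a metal-binding metallothionein. These sites ranked 150, 166, 184 and 263 in liver, higher in their list than the muscle sites in theirs. The bases in capitals are the same in all 3 groups because the element was required, so only the flanks differ.

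Most peaks were called in a single tissue, but the strongest sites were common to both. A peak was counted as shared when at least 1 base overlapped a peak of the other list, and as a 1-tissue peak otherwise. In muscle 7286 of 50647 peaks were shared, 14.4% (14.1–14.7), and in liver 7309 of 29040, 25.2% (24.7–25.7). The share rose steeply with the score. In muscle it went from 7.0% at scores of 30 to 39 over 25.9% at 50 to 69 to 80.9% (78.4–83.2) at 200 or more. In liver the same bins gave 12.2%, 24.1% and 64.6% (62.8–66.4). Of the 100 top-scoring peaks, 95 in muscle and 96 in liver were shared, and of the top 1000, 81.8% and 77.8%. Shared peaks were also wider, with medians of 609 and 401 bp for shared and 1-tissue muscle peaks and of 617 and 370 bp for liver peaks, and a wider interval has more bases that can overlap. Over the 7407 overlapping pairs the scores were correlated across sites with a Spearman rho of 0.451, and rho was 0.396 over the 1421 pairs with both scores at 100 or more. These pairs come from 1 library per tissue and are not replicates.

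**Figure D1:**
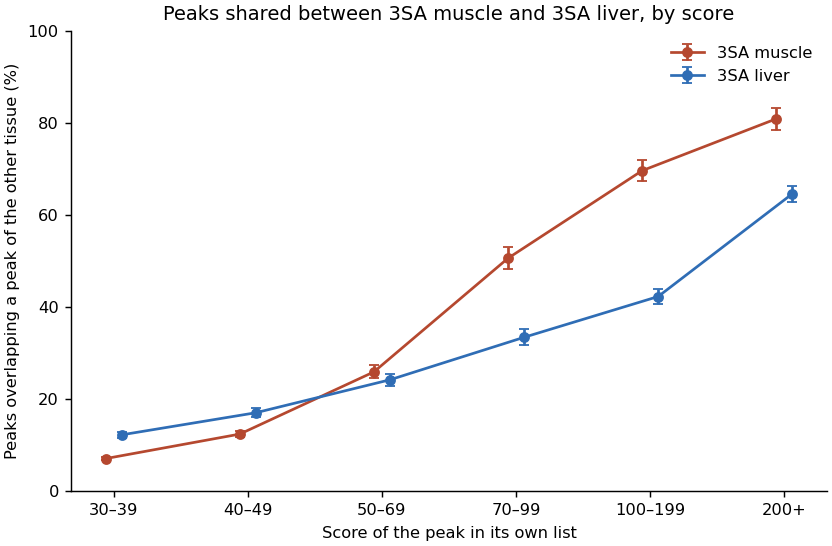
Share of peaks (%) that overlap a peak of the other tissue by at least 1 base, by the score of the peak in its own list, in 3SA muscle (red) and 3SA liver (blue); bars are 95% Wilson intervals. The share climbs from 7.0% to 80.9% in muscle and from 12.2% to 64.6% in liver, and from a score of 50 upwards the muscle share is the higher, with overlapping intervals at 50 to 69.

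Weak and strong 1-tissue peaks differed in how often the same site was called in WT mice. Of the 671 muscle peaks of score 100 or more without a liver partner, 72.3% (68.8–75.5) overlapped a WT muscle peak and 17% a WT liver peak. Of the 2841 such liver peaks, 86.0% (84.6–87.2) overlapped a WT liver peak and 8.45% a WT muscle peak. Strong 1-tissue sites were thus mostly called again in WT tissue of the same kind. Among 1-tissue peaks under a score of 50, only 5.92% of 39216 in muscle and 9.80% of 13816 in liver overlapped the WT list of their own tissue. Shared muscle peaks, which were chosen for their overlap with 3SA liver, overlapped WT liver more often than WT muscle, 63.7% (62.5–64.8) against 43.3% (42.2–44.5).

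At the top of both lists stood the same few loci. The 2 best peaks of each list were in introns of Capn2 and of Pld1, which encodes phospholipase D1. The Capn2 peak ranked 1 in muscle and 2 in liver and the Pld1 peak ranked 2 and 1, with 7 and 5 copies of the element in their intervals in either list. The Esrra peak ranked 6 in muscle and 3 in liver and covered the start of the gene in both. Aldoa, which encodes the aldolase of muscle glycolysis, followed at ranks 7 and 10. Zfp27 ranked 8 and 18, and Jund, an AP-1 subunit gene, 11 and 19. The other genes whose worse rank percentage was among the 10 best of both tissues were Ndufb4 (a complex I subunit, ranks 24 in muscle and 20 in liver), Fam69a (40 and 14), Fabp3 (41 and 13), Lace1 (23 and 24) and Clybl (25 and 29). Fabp3 encodes the fatty acid binding protein of heart and muscle, and its shared site lay more than 16 kb upstream in both lists, at -16441 and -16474 bp.

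A few high ranks belonged to repeated sequence. The Rn45s peak, over the 45S ribosomal RNA repeat, ranked 5 in muscle and 55 in liver. Of the 100 top-scoring muscle peaks, 7 were annotated to ribosomal RNA repeats, against 0 of 100 in liver, which allows a share of up to 3%. Simple repeats made up 5.51% (4.03–7.51) of the 671 strong muscle peaks without a liver partner and 1.13% (0.80–1.59) of the 2841 of liver. Reads from such copies can be placed at the wrong copy, so these sites are uncertain.

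Other loci stood higher in 1 list than in the other. Nlrc5, which encodes a regulator of MHC class I genes, ranked 4 in liver and 437 in muscle at a shared site. Cxadr, the gene of the coxsackievirus and adenovirus receptor, ranked 12 and 776, and Nacc2 16 and 928. In muscle the peak at 2700054A10Rik ranked 13 and in liver 3231. Med23, a Mediator subunit gene, ranked 11 in liver and 57 in muscle, and Mpv17l2 ranked 15 in muscle and 33 in liver, near the top of both. The annotation rule produced part of the contrast at 2 loci. The top muscle site of Pdgfa, rank 16, lay 19922 bp from the TSS, and the overlapping liver peak, rank 9, lay 20278 bp away, just outside the 20 kb limit. At the enolase locus, the muscle peak of rank 14 was annotated to Eno1b and the liver peak of rank 5, which overlapped it, to Eno1.

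Genes were counted as targets when a peak lay within 20 kb of their TSS in the authors' annotation. There were 12182 target genes in muscle and 9437 in liver, and 6698 were common, which is 55.0% (54.1–55.9) of the muscle and 71.0% (70.1–71.9) of the liver targets. Both shares divide the same common genes, so the tissue with fewer target genes has the larger share. Which tissue that is depends on the settings. With equally long lists they were 59.9% and 56.2%, with the 5000 top-scoring peaks of each list 51.0% and 46.6%, with scores of 50 or more 62.5% and 38.6%, and with scores of 100 or more 68.0% and 31.5%, so that the muscle share was the larger in all 4. Muscle alone had 5484 targets and liver alone 2739. Only 3614 of the 6698 common genes, 54.0% (52.8–55.1), had overlapping peaks in both tissues, and the rest were bound at different sites near the same gene. Genes bound in muscle alone mostly carried weak peaks, with 86.5% under a score of 50 and 124 genes at 100 or more. Of those bound in liver alone, 55.5% were under 50 and 477 reached 100. Across the 6698 common genes the best ranks of the 2 tissues had a Spearman rho of 0.418, and across the 3614 with a common site 0.484, both across genes and not replicates.

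**Figure D2:**
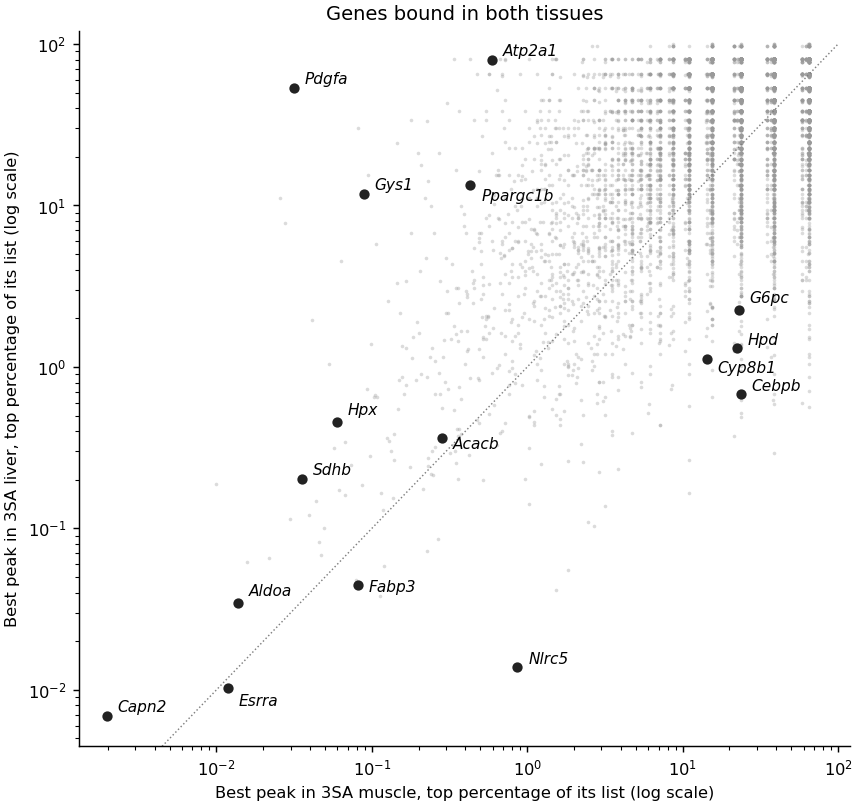
Best peak within 20 kb of each of the 6698 genes bound in both tissues, as the top percentage of the 3SA muscle list (x, log scale) and of the 3SA liver list (y, log scale), with named genes in black and equal percentages on the dotted line. Capn2, Esrra and Aldoa are in the corner of the best ranks of both lists, whereas Gys1 and Atp2a1 are strong in muscle, and Cebpb, Hpd and G6pc are strong in liver; Pdgfa is off the line because its liver peak of rank 9 lies just over 20 kb away.

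As background for gene groups, 21895 RefSeq protein-coding genes were used. Of these, 47.9% had a peak within 20 kb in muscle, 37.7% in liver and 26.9% in both, 21% in muscle only and 10.8% in liver only. Since the muscle list is longer, groups were also counted with the 5000 top-scoring peaks of each list, near which 9.41% of the genes lay in muscle, 10.4% in liver and 4.84% in both.

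Genes of contraction and calcium handling were near top-ranked peaks mainly in muscle, but many also had some liver peak. Of the 38 genes of this list, which served as the muscle markers, 32 had any peak in muscle and 19 in liver. Both shares were above those of all genes, 47.9% in muscle and 37.7% in liver. Of the 18 genes bound in both tissues, 14 had overlapping peaks. Near the top 5000 peaks of muscle were 18 genes, 47.4%, against 3, 7.89%, in liver. The best muscle ranks were those of Atp2a1, the calcium pump of fast fibres (301, with 23217 in liver), Mylpf, a fast myosin light chain (321, with 4514 in liver at a shared site), Ckm, muscle creatine kinase (347), and Ryr1, the calcium release channel (439). Ckm and Ryr1 had no liver peak within 20 kb, and neither had Tpm2 (rank 1608), encoding β-tropomyosin, nor Myot (1899). The muscle peaks of Atp2a1, Mylpf, Ckm, Ryr1 and Tpm2 overlapped WT muscle peaks, and that of Myot did not. Those of Ckm, Ryr1 and Mylpf also overlapped WT liver peaks. The best liver ranks belonged to Atp2a2, the slow-fibre and housekeeping calcium pump (1269), Des (2597), Mylpf (4514) and Myh4 (5616). The best liver peaks of Des and Mylpf overlapped a muscle peak, whereas those of Atp2a2 and Myh4 did not. Another of the 5 Atp2a2 liver peaks did overlap a muscle peak of that gene. Of the 6 genes without a muscle peak, Myoz1 alone had a liver peak.

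Genes of plasma proteins and apolipoproteins, the liver markers, leaned the other way. Of 37 genes, 15 had any peak in muscle and 27 in liver, and 1 (2.70%) against 10 (27.0%) were near the top 5000 peaks. The exception in muscle was Hpx, encoding hemopexin, which ranked 30 in muscle and 132 in liver at an overlapping site, at -3241 bp from the TSS in muscle and -3232 bp in liver. Itih1, which encodes an inter-α-trypsin inhibitor heavy chain, ranked 1052 in liver, Ambp 1531 and Tfr2, the second transferrin receptor, 1836. Itih1, Fgl1 (3035), Ahsg (3426) and Apoc3 (3649) had no muscle peak within 20 kb. The 15 liver marker genes with a muscle peak were 40.5%, beside the 47.9% of all genes. Alb, Afm, Apoh, Fgb and F9 had no peak in either tissue, and neither had Myh2, Myl1, Tnni2, Tnnt1 and Myoz2 among the contractile genes. A peak near a marker gene is binding and not expression, so it checks the labelled tissue only indirectly. After Hpx the best muscle ranks were weak peaks at F2 (5574), Apoa1 (7851) and Apob (7851).

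Genes of hepatic metabolism were more often near the top 5000 peaks of liver than of muscle. Any peak was found for 14 of 15 genes of gluconeogenesis and glycogen in liver and 10 in muscle, for 21 and 18 of 24 genes of the urea cycle and amino acid catabolism, and for 10 and 6 of 14 genes of bile acid synthesis and transport. In liver these counts were 93.3%, 87.5% and 71.4%, beside 37.7% of all genes. In muscle they were 66.7%, 75% and 42.9%, beside 47.9% of all genes, so the bile acid list was below that share. The median top percentage of the bound genes of gluconeogenesis and glycogen was alike, 15.4% of the liver and 15.3% of the muscle list. Of 15 genes of gluconeogenesis and glycogen, 9 (60%) were near the top 5000 liver peaks and 3 (20%) near those of muscle. G6pc, the last enzyme of glucose release, ranked 650 in liver and 11589 in muscle at an overlapping site, and Pck1, encoding PEP carboxykinase, 1531 and 7648. Gys1, the glycogen synthase of muscle, was the strongest muscle gene of this list at rank 45, with 3426 in liver, followed by Pygm, the muscle glycogen phosphorylase (2166 and 2982), Pcx (4392) and Slc37a4 (5574). Gbe1 (4744), of glycogen branching, was bound in liver alone. Of 24 genes of the urea cycle and amino acid catabolism, 9 (37.5%) and 4 (16.7%) were near the top 5000 peaks of liver and muscle. Got1, the cytosolic aspartate aminotransferase, was high in both, at 53 in muscle and 195 in liver. Hpd, of tyrosine breakdown, ranked 378 in liver and 11369 in muscle, Bhmt, of methionine synthesis from betaine, 600 and 4249, and Gls2, the liver-type glutaminase, ranked 488 in liver and had no muscle peak. After Got1, the best muscle ranks were those of Sds (2394), Bhmt and Hal (4385). Of 14 genes of bile acid synthesis and transport, 5 (35.7%) and 0 were near the top 5000 peaks. Cyp8b1, the sterol 12-hydroxylase, ranked 327 in liver and 7241 in muscle, Slc27a5 ranked 576 in liver and had no muscle peak, and Cyp27a1 ranked 1448 and 18857. Nr0b2, the gene of the repressor SHP, ranked 2298 in liver and 5574 in muscle. Abcg8 (5574) and Abcg5 (11987), of sterol export, were the other best muscle ranks.

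In contrast, genes of central energy metabolism were near top-ranked peaks in both tissues, mostly at the same sites. Of 30 genes of the TCA cycle and pyruvate entry, 20 were near the top 5000 peaks in muscle, 18 in liver and 18 in both, and 22 had overlapping peaks. Sdhb, a subunit of succinate dehydrogenase, ranked 18 in muscle and 59 in liver, Sdha 93 and 445, and Idh3a 117 and 79. Idh2 ranked 231 in liver and 425 in muscle. Pdk2, a kinase that restrains pyruvate dehydrogenase, ranked 73 and 964. Pdp1, the opposing phosphatase, was the only member bound in muscle alone, and Idh3g, Dlst, Sucla2, Pdha1 and Pdk1 were bound in liver alone.

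The respiratory chain was bound in both tissues. Of 37 complex I genes, 29 had any peak in muscle and 29 in liver, 24 and 19 were near the top 5000 peaks and 18 were so in both. The 29 genes with any peak were 78.4%, beside 47.9% of all genes in muscle and 37.7% in liver. Besides Ndufb4, the best were Ndufs7 (ranks 49 in muscle and 81 in liver), Ndufb5 (170 and 158) and Ndufa2 (207 and 364), all at the promoter. Ndufs4 ranked 4837 in liver and had no muscle peak. Of 39 genes of complexes III, IV and V and cytochrome c, 30 and 28 were near the top 5000 peaks and 28 were so in both, and 33 had overlapping peaks. Atp5b, the catalytic β subunit of ATP synthase, ranked 34 in muscle and 99 in liver, Uqcr10 60 and 38, Cox5a 75 and 159, and Atp5c1 99 and 553. Liver had its best ranks also at Atp5g3 (88, with 174 in muscle) and Atp5a1 (93, with 130). Atp5d, of the ATP synthase rotor, had a liver peak (5533) and none in muscle.

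Glycolysis was bound near strong peaks in both, with 14 of 22 genes near the top 5000 peaks of muscle, 12 near those of liver and 10 near both. After Aldoa, the best muscle ranks were those of Gapdh (55, with 190 in liver), Gpi1 (98 and 240) and Pfkp (230 and 1587). In liver the peak annotated to Eno1 led this list, at rank 5. Ldha, the lactate dehydrogenase subunit that favours lactate formation, ranked 147 in liver and 780 in muscle at an overlapping site. Pfkm, the muscle phosphofructokinase, ranked 928 in muscle and had no liver peak.

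Genes of fatty acid uptake, oxidation and ketogenesis were split, with 12 of 34 near the top 5000 peaks of each tissue and 8 near both. Etfa, which hands electrons from fatty acid oxidation to the respiratory chain, ranked 157 in muscle and 213 in liver, and Acadm, the medium-chain dehydrogenase, 875 and 3010. Acads, the short-chain dehydrogenase, ranked 1972 in liver and had no muscle peak, and Cpt1b, the muscle carnitine palmitoyltransferase, ranked 928 in muscle and had no liver peak. Genes of ribosomal proteins were less often near the top 5000 peaks than respiratory genes. Of 47 mitochondrial large-subunit genes, the same 5 (10.6%) were near the top 5000 peaks in each tissue. Of all genes, 9.41% were in muscle, 10.4% in liver and 4.84% in both. The 5 were led in muscle by Mrpl36 (557), Mrpl12 (928) and Mrpl15 (979). Of 45 cytosolic large-subunit genes, 2 (4.44%) were in muscle and 3 (6.67%) in liver. Any muscle peak was found for 28.9% of them and any liver peak for 33.3%, beside 47.9% and 37.7% of all genes. These small counts were not tested against the shares of all genes. The best of both tissues was Rplp0, at 2394 in muscle and 1531 in liver, and Rpl13a (3426) was bound in liver alone.

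**Figure D3:**
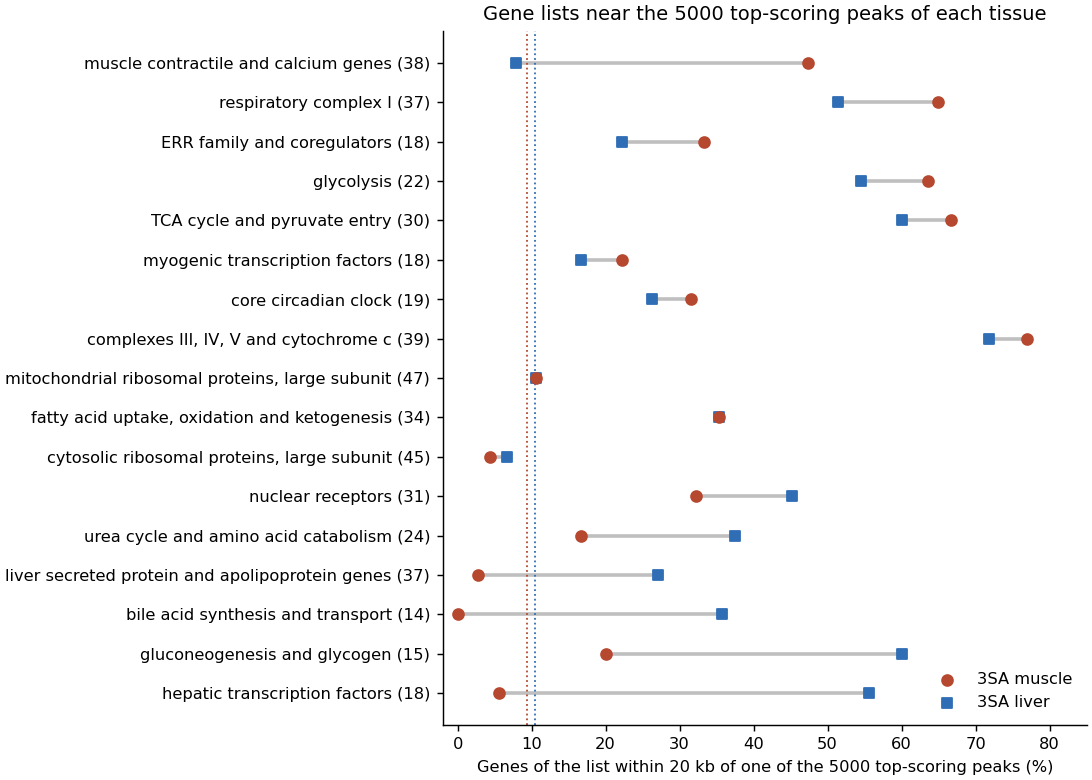
Share of the genes of each list (%, number of genes in brackets) that lie within 20 kb of one of the 5000 top-scoring peaks in 3SA muscle (red circles) and 3SA liver (blue squares), with the share of all protein-coding genes as dotted lines (9.41% and 10.4%). Contractile genes (47.4% against 7.89%) are far to the right in muscle, hepatic transcription factors (5.56% against 55.6%) in liver, and TCA cycle and respiratory genes are above 50% in both.

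Muscle and liver forms of the same protein were compared within pairs. For 14 such pairs, picked after values of some members had been seen, 12 muscle forms were near the top 5000 muscle peaks and 6 near those of liver, whereas 5 and 8 of the liver forms were. Atp2a2, a muscle marker above, was taken here as the liver form of the calcium pump. It was near the top 5000 peaks of both tissues and is in both counts of the liver forms. With any peak the counts were 13 in muscle and 10 in liver for the muscle forms and 12 and 13 for the liver forms. Slc2a4, the insulin-responsive glucose transporter GLUT4, ranked 1077 in muscle with no liver peak, and Slc2a2, the hepatic GLUT2, ranked 2437 in liver and 32824 in muscle. Pfkl, the liver phosphofructokinase, ranked 2583 in liver and 7851 in muscle, the reverse of Pfkm. Cpt1a, the carnitine palmitoyltransferase of liver, was bound in both, at 895 in liver and 1773 in muscle. Gys2, the liver glycogen synthase, had a promoter peak of rank 2860 in liver and a peak of the lowest score in muscle. Some pairs did not separate. Acacb, the acetyl-CoA carboxylase at mitochondria, ranked 144 in muscle and 105 in liver, while Acaca had no peak in either, and for cytochrome c oxidase subunit 8 the widely expressed Cox8a ranked high in both tissues, at 307 in muscle and 505 in liver, with Cox8b at 1608 and 15499. Fbp2, the muscle fructose bisphosphatase, went against the pattern with a liver peak (5225) and none in muscle.

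Among regulators, the ERR family and its partners had 11 of 18 members bound in each tissue and 8 in both, 6 at overlapping sites. The 11 members were 61.1%, beside 47.9% of all genes in muscle and 37.7% in liver. Of all genes, 26.9% were bound in both. Esrra was by far the highest, and Esrrb ranked 2967 in muscle and 3657 in liver, while Esrrg had weak peaks only (19604 and 23394). Ppargc1b, which encodes PGC-1β, ranked 218 in muscle and 3915 in liver at an overlapping site more than 16 kb upstream. Ppargc1a, which encodes PGC-1α, had a weak muscle peak (11987) and none in liver. Perm1, a muscle regulator induced by PGC-1 and ERRs, ranked 999 in muscle and had no liver peak. Of the corepressors, Ncor1 was unbound in both tissues and Nrip1 (RIP140) had a liver peak (8754) alone. Of the coactivators Ncoa1 ranked 2721 in muscle and 9882 in liver, and Ncoa2 (7934) was bound in liver alone. Pprc1 had a weak muscle peak (19604) and Sirt1 a weak liver peak (23394). Prox1, known as an ERRα partner in liver, had peaks at ranks 7851 and 15059 that did not overlap. Nrf1 ranked 11987 and 9882, and Tfam, Gabpa and Hdac3 had no peak in either tissue.

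Of 31 nuclear receptor genes, 10 were near the top 5000 peaks in muscle, 14 in liver and 8 in both. Thra, the thyroid hormone receptor α gene, ranked 181 in muscle and 108 in liver, Rarb 206 and 826, and Ppara, the fatty acid sensor of liver, 733 and 591. Nr2f6 ranked 213 in liver and 4249 in muscle. Nr4a3 ranked 1608 in muscle and had no liver peak. All 19 clock genes had a peak in liver and 14 in muscle, and 5 and 6 were near the top 5000 peaks. With any peak the shares were 100% in liver and 73.7% in muscle, beside 37.7% and 47.9% of all genes. Near the top 5000 peaks they were 26.3% and 31.6%, beside 10.4% and 9.41%. Nr1d2, the REV-ERBβ gene, ranked 208 in muscle and 488 in liver, and Bhlhe40 263 and 826. Npas2 ranked 2163 in muscle and 18865 in liver, and Nfil3 2721 and 799, while Per2 ranked 1754 in liver and 5574 in muscle. Of the 18 hepatic transcription factors, 10 (55.6%) were near the top 5000 liver peaks and 1 (5.56%) near those of muscle. That gene was Cebpa, at 2107 in muscle and 4219 in liver. Cebpb ranked 196 in liver and 11987 in muscle, Xbp1 2565 and 32824, Nr1h4, the bile acid receptor gene, 3042 and 29571, and Hnf4a 3384 and 11987. Myogenic factors did not separate in this way, with 4 of 18 in muscle and 3 in liver. Tead1 ranked 1608 in muscle and 3657 in liver, Mef2d 1773 and 3862, and Myog 4249 and 18865.

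The strongest genes bound in muscle alone were of mixed kinds. Limd1 (rank 17) had its peak in a 3′ UTR of a neighbouring gene, at chr9:123461804-123462187, and that peak overlapped both WT lists. The peak annotated to Mir6990 (88), at chr19:6911754-6912885, lay in intron 6 of Esrra and shared no base with a liver peak. Within 20 kb of the TSS, liver had 2 peaks annotated to Esrra itself and muscle 1. Hcfc1 (109) was bound in an exon on the X chromosome. The peak of Itgb6 (127) was annotated to an intron at -15392 bp from the TSS and overlapped both WT lists. Trappc10 (230), Kcnj5 (264), 1700123J17Rik (310), Lrrc30 (323) and Cdk5rap3 (331) followed. By annotation Eno1 led the genes bound in liver alone, but its peak overlapped the muscle peak annotated to Eno1b. The strongest after Eno1 were Klb (116), which encodes the FGF coreceptor β-klotho, Plscr2 (138), Cox18 (184), Shmt1 (240), of one-carbon metabolism, and Aqp9 (347), the hepatic glycerol channel. Mir3969 (346), Fam3c (386), Mir7015 (391) and F730035M05Rik (395) completed the first 10.

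Shared and 1-tissue peaks lay in different annotation classes. Promoter-TSS peaks made up 10.4% (9.70–11.1) of the shared muscle peaks and 10.3% (9.61–11.0) of the shared liver peaks, against 2.70% (2.55–2.86) and 5.40% (5.11–5.71) of the 1-tissue peaks. Over whole lists the promoter share was 3.81% in muscle and 6.63% in liver, 2.82 percentage points lower in muscle (95% Newcombe interval of muscle minus liver, -3.16 to -2.49). Among peaks of score 100 or more the sign turned, with 11.3% in muscle and 9.28% in liver, a difference of 2.06 points (0.67 to 3.52). These peaks are 5.14% of the muscle list but 20.6% of the liver list. With equally long lists the sign did not turn, at -2.32 points (-2.69 to -1.96). With the 5000 top-scoring peaks of each list the difference was -0.78 points (-1.92 to 0.35). Of the promoter peaks 39.2% in muscle and 39.1% in liver were shared. Promoter peaks with a CpG fraction of at least 0.05 were shared more often, 48.5% (45.2–51.7) in muscle and 47.4% (44.0–50.9) in liver, than those below, 30.8% (28.1–33.7) and 33.0% (30.3–35.8).

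CpG-rich intervals were also more frequent among shared than among 1-tissue peaks. A CpG fraction of at least 0.05 was found in 14.5% (13.7–15.3) of shared and 4.9% of 1-tissue muscle peaks, and in 13.5% (12.7–14.3) of shared and 5.44% of 1-tissue liver peaks. The whole-list shares were 6.28% in muscle and 7.47% in liver, and among peaks of score 100 or more they were 15.5% and 8.98%, so this difference turned as well. Muscle minus liver, it was 2.66 points (1.45 to 3.87) with the 5000 top-scoring peaks of each list. With equally long lists it was -0.40 points (-0.83 to 0.02). Outside promoters, 1-tissue muscle peaks were richer in exons, 6.45% (6.22–6.68) against 3.63% (3.39–3.89) of 1-tissue liver peaks, and in LINE repeats, 10.4% against 7.26%. One-tissue liver peaks were richer in SINE repeats, 12.0% (11.6–12.4) against 5.95% (5.73–6.17). LINE peaks were rarely shared, 3.95% of 4683 in muscle and 11.7% of 1785 in liver, and at scores of 100 or more they made up 1.77% and 1.96% of the lists.

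**Figure D4:**
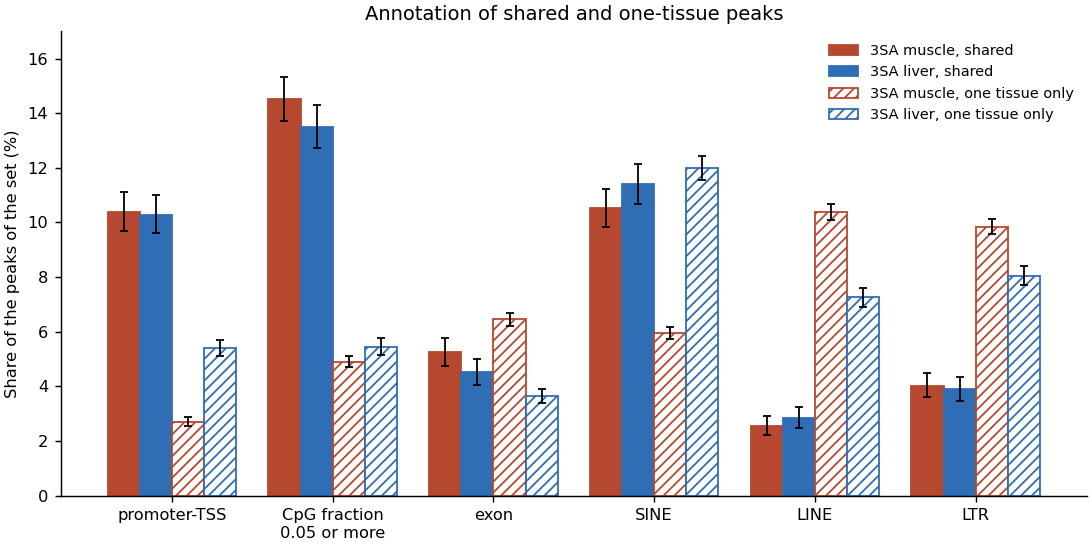
Share of peaks (%) in 6 overlapping annotation classes for shared peaks (filled) and 1-tissue peaks (hatched) of 3SA muscle (red) and 3SA liver (blue); bars are 95% Wilson intervals. Promoter and CpG-rich classes are higher in shared peaks of both tissues (10.4% and 10.3% for promoters), and LINE and LTR classes are higher in 1-tissue peaks.

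The ERRE separated the lists most clearly. TCAAGGTCA was searched on both strands in the central 300 bp of every peak. It was in 2169 of 50647 muscle peaks, 4.28% (4.11–4.46), and in 4419 of 29040 liver peaks, 15.2% (14.8–15.6), 10.9 points fewer in muscle (95% interval of muscle minus liver, -11.4 to -10.5). Windows of the same length 5 kb to either side held it in 0.857% and 0.930%, and 0.423% of 32851 RefSeq promoter sequences of 300 bases did. The reversed letters ACTGGAACT were no more frequent at peaks than in these windows, 0.454% and 0.485% in muscle and 0.444% and 0.504% in liver. The share of muscle peaks with the element was thus about 5.0 times that of its flanking windows and the liver share 16.4 times.

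Shared peaks of the 2 lists cover largely the same DNA, so their shares are not independent. The element was in 17.7% (16.8–18.5) of shared muscle and 21.2% (20.3–22.2) of shared liver peaks. It was in 2.04% (1.91–2.17) of 1-tissue muscle peaks and 13.2% (12.8–13.7) of 1-tissue liver peaks. Even the weakest muscle peaks, at scores of 30 to 39, held it in 11.3% (10–12.7) when they were shared and in 1.44% (1.31–1.59) when they were not. In liver, the intervals of shared and 1-tissue peaks overlapped from a score of 50 upwards, with 24.8% (22.6–27.1) and 26.1% (24.2–28.1) at scores from 100 to under 200. In muscle they did not overlap in any score bin. At 200 or more, 171 of 849 shared peaks, 20.1% (17.6–23.0), and 15 of 200 1-tissue peaks, 7.50% (4.60–12.0), held it. In both tissues promoters held it less often than introns, 3.53% against 5.04% in muscle and 8.68% against 16.8% in liver.

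**Figure D5:**
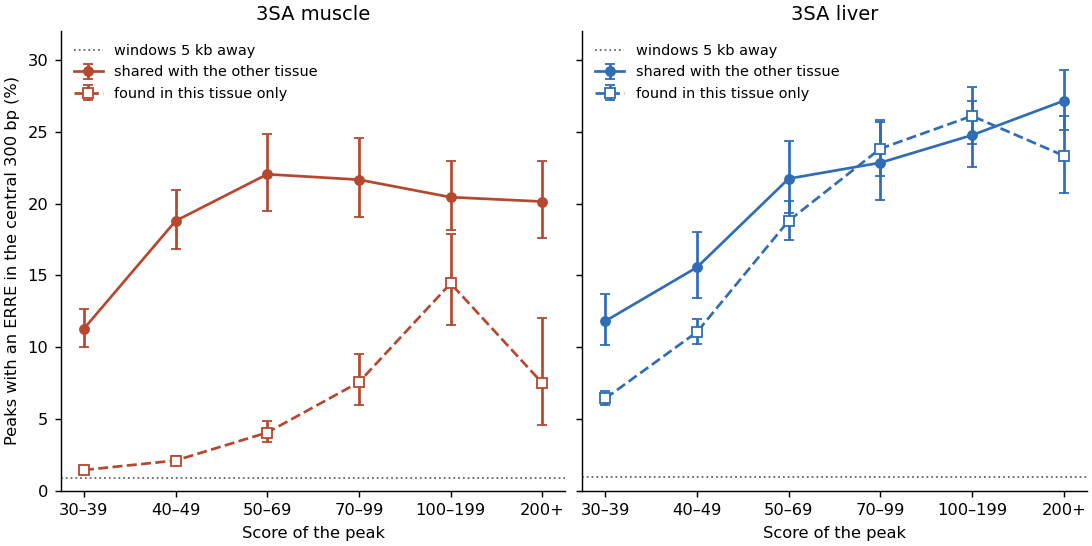
Share of peaks (%) with TCAAGGTCA in the central 300 bp by peak score, in 3SA muscle (left) and 3SA liver (right), for shared peaks (filled circles) and 1-tissue peaks (open squares); bars are 95% Wilson intervals and the dotted line is the share in windows 5 kb away. One-tissue muscle peaks stay between 1.44% and 14.4%, under the shared ones in every score bin, whereas the intervals of both kinds of liver peak overlap from a score of 50 upwards.

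The base after the first T ranked alike in both tissues. In liver, TCAAGGTCA was in 15.2% of peaks, TGAAGGTCA in 4.53%, TAAAGGTCA in 0.761% and TTAAGGTCA in 0.506%, and in muscle in 4.28%, 1.55%, 0.342% and 0.227%, where TTAAGGTCA was below its 0.287% in the flanking windows. The element lay at a median of 63.5 bp from the interval centre in muscle and 58.5 bp in liver. More than 1 copy in the window, overlapping copies included, was found in 143 muscle and 267 liver peaks, of which 135 in each tissue were shared peaks.

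Motifs of other factors, searched in the same way and with the same windows, differed less between the whole lists. The myogenic E-box CAGCTG was in 22.6% (22.2–22.9) of muscle peaks beside 14.6% of their flanking windows and in 18.9% (18.5–19.4) of liver peaks beside 14.5%, and in 16.3% of the promoter sequences. In peaks of score 100 or more without a partner it reached 24.3% (21.2–27.7) in muscle and 17.5% (16.1–18.9) in liver. Over all peaks the MEF2 letters CTAAAAATA were in 0.205% of muscle and 0.258% of liver peaks, below the 0.565% and 0.608% of their flanking windows. In the strong peaks without a partner, these letters were in 8 of 671 in muscle, 1.19% (0.61–2.33), and 4 of 2841 in liver, 0.141% (0.05–0.36), beside 0.447% and 0.651% of flanking windows and 0.517% of promoters. The C/EBP letters TTGCNNAA were in 14.7% (13.4–16) of liver and 10.7% (8.61–13.3) of muscle peaks of this kind, beside 11.1% and 10.9% of flanking windows and 10.8% of promoters. The FOXA letters TGTTTAC were in 5.0% (4.26–5.86) and 2.09% (1.25–3.47), with 4.59% and 3.73% in flanking windows and 3.65% of promoters. The HNF4-type letters CAAAGTCCA were in 32 of 2841 liver peaks, 1.13% (0.80–1.59), beside 0.352% of flanking windows and 0.475% of promoters. They were in 0 of 671 muscle peaks, which allows a share of up to 0.447%, beside 0.745% of flanking windows. The HNF1 letters GTTAATNAT were above their flanking windows in muscle alone, though on 4 peaks, and their share of peaks was higher in liver. They were in 4 of 671 muscle peaks, 0.596% (0.23–1.52), beside 0.224% of flanking windows. In liver they were in 26 of 2841, 0.915% (0.63–1.34), beside 0.933%, and in 0.801% of promoters. The direct repeat letters AGGTCANAG, which share AGGTCA with the ERRE and can overlap it, were in 7.31% of 1-tissue liver and 3.22% of 1-tissue muscle peaks and in 9.62% and 8.28% of shared peaks, with 2.01% of promoters. These matches describe letters in the windows and not binding by the named factors.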

How the data were processed

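ERRα ChIP-seq peak lists of 3SA muscle and 3SA liver were compared, 1 list per tissue, with both WT lists for reference. Per the paper's methods and the submitters' processing notes, the authors trimmed reads (Trimmomatic 0.36), mapped them to mm10 (BWA 0.7.12), removed duplicates (Picard 2.0.1), called peaks against input (MACS2 2.1.1.20160309) and annotated them (HOMER 4.9.1). The labels give 3 pooled immunoprecipitations per library and the methods 4. In the deposited lists the score is a whole number, CpG and GC content are given as a fraction, and the TSS distance is in bp, an integer that can be negative. The input samples have no values used here.

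Peak overlap (at least 1 base), target genes (20 kb) and motif matches were computed with Python 3.11.15, pandas 2.3.3, scipy 1.17.1 and pysam 0.24.0, and were checked on simulated data. GC content recomputed from GRCm38.p6 equalled the listed value for 50645 muscle and 29037 liver peaks. Named genes are the 10 best of each list, the 10 best bound in 1 tissue, the 10 best of both, all of the ERR family list and, per other list, the 4 best in each tissue and up to 4 with a peak of at least 100 in 1 tissue and none in the other. The members, the 17 gene lists and the 17 motifs were chosen with earlier results of these data known, and other genes named and the printed sequences were picked after values had been seen. Alternatives were score minimums, list lengths, overlap rules, TSS distances, CpG thresholds, promoter definitions and motif settings. Some genes that this rule names are not reported here.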

Additional observations from a re-analysis of the deposited data

How the results depend on the processing

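With 1 list per tissue, only counting error and the settings below could be examined, and no library could be left out. The muscle peak share shared with liver, 14.4%, became 39.4% with only scores from 50 upwards, 54.4% from 100, 20.4% with equally long lists, 35.7% with the 5000 top-scoring peaks of each, 11.5% by centres within 300 bp and 8.96% by overlap of at least 50% of both intervals. The liver share, 25.2%, became 23.9%, 23.6%, 20.6%, 35.5%, 20.1% and 15.6%. Of the muscle targets, 55.0% were also liver targets, and 62.5%, 68.0%, 59.9% and 51.0% under the score and length settings, then 45.2% at 5 kb, 60.7% at 50 kb and 66% at any distance. The liver figure of 71.0% became 38.6%, 31.5%, 56.2%, 46.6%, 55.9%, 77.5% and 82.1%. Under all 4 score and length settings the larger share was that of muscle, which only restates that muscle then had fewer target genes. The promoter difference, muscle minus liver, of -2.82 points became -0.77, 2.06, -2.32 and -0.78, and -4.44 with a distance of up to 1 kb. The CpG difference of -1.19 points became 2.08, 6.56, -0.40 and 2.66, and 1.23 and -0.61 with thresholds of 0.03 and 0.08. The ERRE difference of -10.9 points became -10.03, -7.40, -9.19 and -9.62, then -14.2 with TNAAGGTCA, -13.3 over whole intervals and -10.01 within 20 kb of a TSS, and stayed negative in all 7. Why the promoter and CpG differences turned was not tested.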

Other observations

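The X chromosome, which makes up 6.28% of the length of the chromosomes, held 69 of the 50647 muscle peaks, 0.136%, and 80 of the 29040 liver peaks, 0.275%. The cause was not tested.

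The lowest score, 30, was shared by 17824 of the 50647 muscle peaks, against 134 of 29040 in liver. Muscle peaks at that score could not be ordered among themselves.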
